A study of Homo sapiens with 4 samples.

Results

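The heavy polysome and the free pools of sucrose gradients were compared over the 1097 genes that had 10 or more counts in the free library, out of 19948 genes in the table. For each of these members, the count plus 0.5 was divided by the library total, the heavy polysome share was divided by the free share, and the log2 of this ratio was set relative to that of the median member. The question was which mRNAs that were well measured in the free pool, besides those of ribosomal proteins and ferritin, were scarce in the heavy polysomes. The minimum acts on the free count, which is also the denominator of the ratio, so the members are genes with reads in the free pool and not a cross-section of all expressed genes.

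The RNA came from HEK293T, an established human embryonic kidney cell line. All 4 libraries came from cells given cycloheximide at 100 ug/mL for 10 min, a drug that holds elongating ribosomes on their mRNAs, and from sucrose gradients of 10% to 50%. RNA with a cap and a poly(A) tail was pulled down with bead-bound eIF4E, a cap-binding protein used here in a mutated form, and read as RNA on nanopores without amplification. The cells of 3 dishes were pooled before lysis. There was 1 library each of heavy polysome, light polysome, monosome and free RNA, so no difference has a replicate check, and all intervals given are 95% intervals that cover counting error only.

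An mRNA that is being translated carries several ribosomes at once and sediments with the polysomes, while an mRNA whose initiation is blocked stays with free ribonucleoprotein particles near the top of the gradient. The number of ribosomes that an mRNA can hold also grows with the length of its coding sequence, so a short mRNA can be actively translated in the monosome or light polysome pool. Ferritin mRNAs are textbook cases of blocked initiation, through a hairpin bound by iron regulatory proteins, and TOP mRNAs, which begin with a pyrimidine run next to the cap and code for ribosomal proteins and translation factors, are held back through LARP1 and mTOR signalling.

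The libraries held 1564531 counts in heavy polysome and 355509 counts in free, with 1329334 in monosome and 1499401 in light polysome. The floor of 3 counts corresponds to 1.92 CPM (the count divided by its library total, then scaled up alike in all libraries) in heavy polysome and 8.44 CPM in free. Of the markers listed for the line, 8 of 8 had counts (6 to 850 over the 4 libraries), and of markers of blood, red cells, liver, fibroblasts and T cells 2 of 6 had any, at most 4. A share of a library says nothing of the amount of RNA in the pool, and a smaller amount of an mRNA in heavy polysome cannot be told apart from a larger amount of the other mRNAs there.

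The members took 59.1% of the heavy polysome counts and 96.6% of the free counts. Free counts of the members ran from 10 to 53794, with a median of 24; 453 members had 30 or more and 64 had 1000 or more. The median member had a share 1.93 times as large in heavy polysome as in free, a log2 ratio of 0.95. Over the 7527 genes with 30 or more counts in the 4 libraries together, a set that includes members, the median was 8.26 times. The median member lay 2.10 log2 units below that median, and every ratio below is relative to a set that itself leans to the free pool.

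Relative log2 ratios spread from -11.08 to 4.54, with quartiles of -1.42 and 1.46. A member was called lower or higher when it lay at least 2-fold from the median member and its interval excluded that median. By this rule 345 of 1097 members were lower in heavy polysome, which is 31.4%, and 360 were higher, which is 32.8%. These shares depend on the scaling: with library totals alone 198 were lower and 540 higher, with DESeq2's size factors 645 and 118, and relative to the median of the 7527 genes 756 and 49. The 144 members at the threshold, with 10 or 11 free counts, had a median of 1.39 (-4.02 to 4.21), and the 183 genes just outside it, with 8 or 9, had 1.13 (-4.53 to 4.45).

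**Figure D1:**
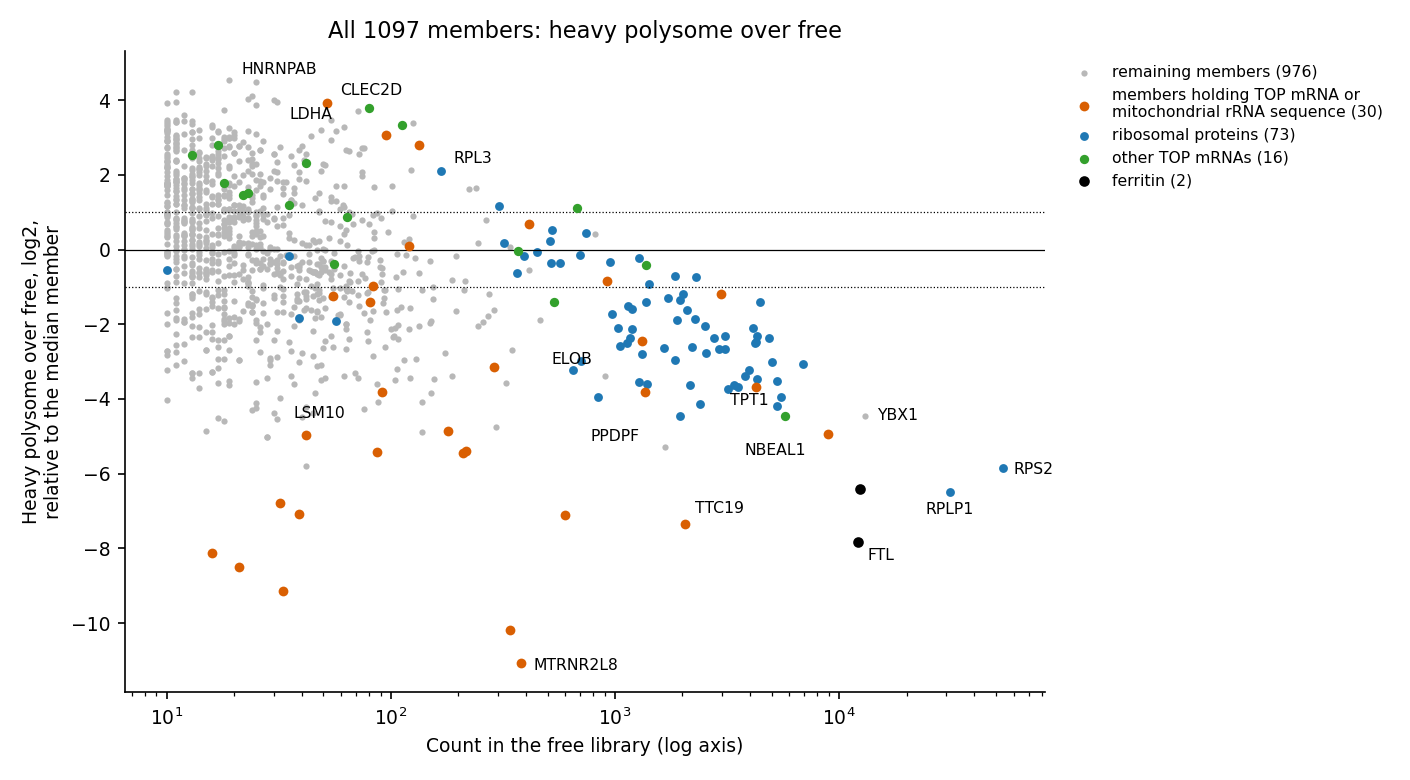
Each point is 1 of the 1097 members, with its free count on a log axis and its relative log2 ratio of heavy polysome over free; dotted lines mark the 2-fold threshold. Ribosomal proteins and ferritin fill the lower right with YBX1, PPDPF and ELOB among them, and most of the lowest points are genes that hold sequence of a TOP mRNA or of mitochondrial rRNA.

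The known free mRNAs set the scale. FTL, the ferritin light chain, had 33963 CPM in free, 2110 in monosome, 598 in light polysome and 289 in heavy polysome, and its relative ratio was -7.82 (-7.96 to -7.69). FTH1, the heavy chain, stood at -6.41 (-6.50 to -6.33). Of the 73 ribosomal protein members, 54 were lower and 2 higher, with a median of -2.31, and they took 19.2% of heavy polysome counts and 65.4% of free counts. RPS2 of the small subunit was at -5.85 and RPLP1 of the ribosomal stalk at -6.48, while RPL3 of the large subunit was at 2.10 (1.88 to 2.34) and not called higher under TMM, DESeq2's size factors or the all-gene scaling.

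Outside the TOP and ferritin lists were 1006 members, of which 287 were lower, 348 higher and 371 neither. They took 36.4% of heavy polysome counts and 21.7% of free counts, with a median of 0.14, a median that turned below 0 under TMM, DESeq2's size factors and the all-gene scaling. Of the 368 with 30 or more free counts, 163 were lower (44.3%) and 69 higher (18.8%). Ratio and free count share the free library. Over the 909 without a copy, as defined below, their Spearman correlation was -0.37, given as a description.

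Many genes at the bottom of the ranking have an annotated transcript that contains a copy of another RNA. Of the 30 lowest members with 30 or more free counts outside the ribosomal protein and ferritin lists, 3 hold mitochondrial rRNA sequence, 10 hold all or part of the coding sequence of a TOP mRNA, 3 resemble another member and 14 hold none. A copy was an alignment in the same orientation of at least 80 bases and 85% identity. It lay between a transcript of the member and the coding sequence of the source gene, a rule chosen after the values were seen. The source had to be a mitochondrial rRNA, a TOP or ferritin mRNA or another member. Sequence of any other gene was not counted as a copy. Where a read from the source can align to the copy as well, the count of the host gene may not be a measure of its own mRNA, and the labels do not say how such reads were counted.

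These pairs are shown because their hosts are the most counted or the lowest of the set; capitals mark the bases that differ within 30 aligned bases. The windows are from GENCODE 29 transcripts on hg38. They lie at chr2:203190891-203190920 (+) in NBEAL1 and chr9:127449679-127449708 (-) in RPL12, at chr2:62146635-62146664 (+) in COMMD1 and chr3:39410760-39410789 (+) in RPSA, at chr17:16044642-16044671 (+) in TTC19 and chr15:69452970-69452999 (+) in RPLP1, and at chr11:10509159-10509188 (-) in MTRNR2L8 and chrM:1671-1700 (+) in the mitochondrial 16S rRNA gene MT-RNR2.
NBEAL1: tctccaaaaaaGgttggtgatgacattgcc
RPL12: tctccaaaaaaAgttggtgatgacattgcc
COMMD1: gtgctAaagtttgctgctgccactggagcc
RPSA: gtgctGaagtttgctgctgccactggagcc
TTC19: gcctgcatctactcAgccctcaCtctgcaT
RPLP1: gcctgcatctactcGgccctcaTtctgcaC
MTRNR2L8: gcCaaacctagccccaaacccaTtccacct
MT-RNR2: gcTaaacctagccccaaacccaCtccacct

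MTRNR2L8, annotated for a small humanin-like peptide, matches MT-RNR2 at 93.1% identity over 1303 bases. It had 381 counts in free, 42 in monosome, 1 in light polysome and 1 in heavy polysome, a relative ratio of -11.08 (-16.97 to -9.17). MTRNR2L12 had 2 counts in heavy polysome against 341 in free and stood at -10.18 (-13.55 to -8.64). MTRNR2L1 had 0 counts in heavy polysome and 33 in free, a share at least 48.4-fold lower against the floor of 3 counts in the heavy polysome library. LMNTD1, with RPL39 sequence, and AC073082.1, with TPT1 sequence, also had 0 counts in heavy polysome, which puts their shares at least 30.8-fold and 23.5-fold lower than in free.

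Host and source stood side by side in most pairs. NBEAL1, a large BEACH-domain protein, holds the whole 495-base coding sequence of RPL12 at 99.2% identity, in an exon of a transcript annotated as a retained intron (chr2:203190780-203191274). It had 25032 CPM in free, 4037 in monosome, 4380 in light polysome and 1567 in heavy polysome, at -4.95 (-5.01 to -4.88), beside -3.63 (-3.71 to -3.56) for RPL12. COMMD1, a regulator of copper transport and NF-kB, holds 628 bases of RPSA in its 3' UTR and stood at -3.67, beside -3.23 for RPSA.

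TTC19, a mitochondrial complex III assembly factor, holds 343 bases of RPLP1 in its 3' UTR and stood at -7.34 (-7.64 to -7.07), beside -6.48 (-6.53 to -6.42) for RPLP1. NHSL2 holds 516 bases of TPT1, the translationally controlled tumour protein, and stood at -7.12 (-7.66 to -6.65), beside -4.45 for TPT1. The pattern had a high end too: CLEC2D, a lectin-like receptor, holds the whole coding sequence of the nucleolar protein NPM1 at 93.1% identity and stood at 3.92 (3.54 to 4.36), beside 3.35 (3.08 to 3.63) for NPM1.

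In all, 27 members outside the TOP and ferritin lists hold TOP mRNA sequence. Of these, 20 were lower, 3 higher and 4 neither, against the 31.4% lower and 32.8% higher of all members. A pseudogene named for a TOP or ferritin gene overlapped an exon on the same strand in 9 of the 287 lower members. The same was found in 0 of the 348 higher and 0 of the 371 others. Pseudogenes of other genes were not searched, and of the 73 ribosomal protein members 54 were themselves lower. For 23 pairs the source was itself a member; the Spearman correlation of host and source ratios was 0.69, a description over genes that share libraries and possibly reads.

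The host was lower than its source in 18 of the 23 pairs. The count of NBEAL1 was 2.63 times that of RPL12 in free, against 1.05 in monosome, 1.06 in light polysome and 1.06 in heavy polysome. COMMD1 had 1.07 times the count of RPSA in free, against 0.774, 0.761 and 0.789 in the other libraries along the gradient. TIPIN, a replication fork protein that holds 532 bases of RPL9, had 0.794 of the RPL9 count in free, against 0.0438 in monosome, 0.0501 in light polysome and 0.139 in heavy polysome. The host-to-source ratio was highest in free in 18 pairs and in heavy polysome in 5. The minimum of 10 free counts also chose the hosts, so a host with few counts could enter only where its free count was high, and a ratio that is highest in free is favoured by that choice. These counts of pairs are therefore a description, and the cause was not tested.

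**Figure D2:**
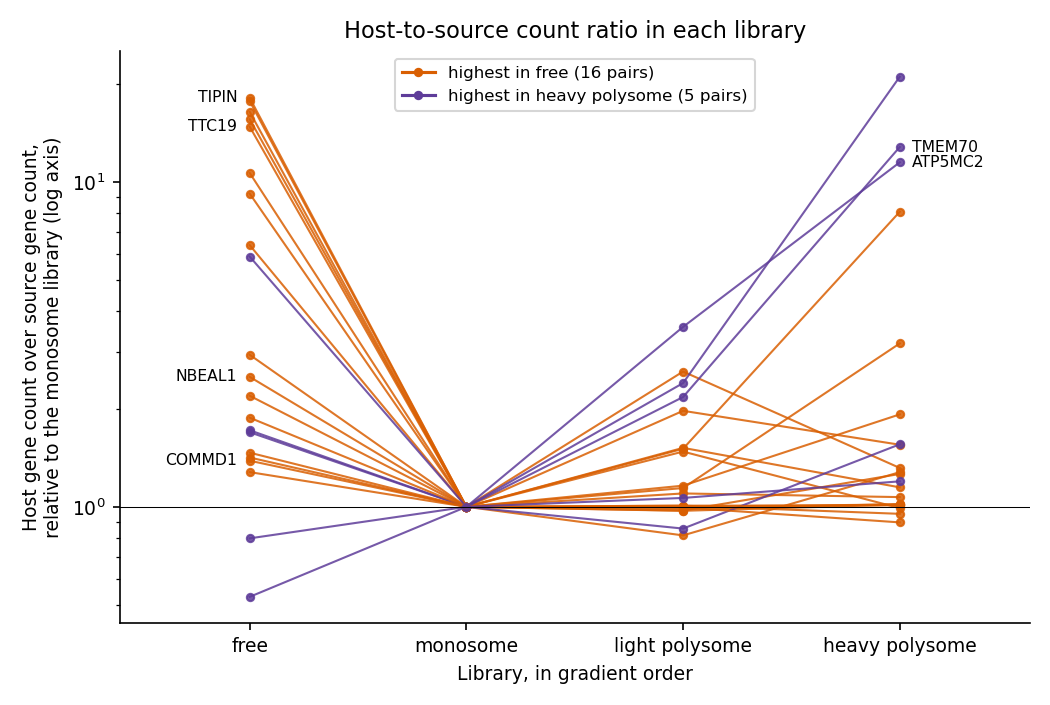
Each line is 1 pair of a host gene and the TOP gene whose coding sequence it holds, for the 21 pairs with counts in all 4 libraries: the host count over the source count, relative to the monosome library, on a log axis. In 16 pairs the ratio is highest in free, and in 5 in heavy polysome.

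Without any such copy, 909 members outside the TOP and ferritin lists remained. Of these, 237 were lower, 328 higher and 344 neither, and they took 28.9% of heavy polysome counts and 9.74% of free counts. The library in which each of the 237 had its highest CPM was free for 24, monosome for 126, light polysome for 87 and heavy polysome for 0. The lower call itself puts the heavy polysome share below the free share, so the 0 was fixed by it. Over all 909 the highest CPM was in free for 24, monosome for 178, light polysome for 405 and heavy polysome for 302. Most of the 237 thus had their highest share in the monosome or light polysome library, as did most of the 909. FTL and RPLP1 had theirs in free. Among the 328 higher members, the highest CPM was in heavy polysome for 246, light polysome for 79 and monosome for 3. The higher call puts their heavy polysome share above the free share, so free could not be the highest.

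Few members were, like ferritin, highest in free. YBX1, the Y-box protein that coats mRNAs, had 36615 CPM in free, 5630 in monosome, 3305 in light polysome and 3228 in heavy polysome. Its relative ratio was -4.45 (-4.50 to -4.41), and its highest alignment to another member was 177 bases of YBX3 at 85.3% identity. TPT1, a TOP mRNA, had 16061 CPM in free, 8145 in monosome, 855 in light polysome and 1420 in heavy polysome, with the same ratio of -4.45 (-4.52 to -4.38). Both were highest in free, and both were above 1000 CPM in heavy polysome.

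PPDPF, a factor named for pancreatic progenitor proliferation, was the lowest member without a copy among those with 100 or more free counts outside the TOP and ferritin lists. It had 4712 CPM in free, 2734 in monosome, 2137 in light polysome and 233 in heavy polysome, a relative ratio of -5.28 (-5.45 to -5.12). ELOB, elongin B, an adaptor of cullin ubiquitin ligases, had 2546 CPM in free, 569 in monosome, 648 in light polysome and 469 in heavy polysome, at -3.39 (-3.53 to -3.25). The profiles differ: PPDPF stayed high as far as the light polysomes, and ELOB had 60.2% of its summed CPM in free and 11.1% to 15.3% in each other pool.

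Among the 129 lower members without a copy and with 30 or more free counts, 16 had their highest CPM in free, 62 in monosome and 51 in light polysome. Of the 16, 2 had over 50% of their summed CPM in free: ELOB, and ATP5MGL, a paralogue of an ATP synthase subunit, with 11 counts in heavy polysome against 31 in free. NME4, a mitochondrial nucleoside diphosphate kinase, had 10.9% of its summed CPM in heavy polysome and 36.3% in free, with a ratio of -2.68 (-2.88 to -2.47). BOD1, which acts in chromosome biorientation, was at -2.94 (-3.29 to -2.59).

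The larger group peaked in the monosomes. LSM10, an Sm-like protein of the U7 particle that processes histone mRNA, had 214 CPM in free, 1058 in monosome, 311 in light polysome and 21.1 in heavy polysome, a relative ratio of -4.28 (-4.93 to -3.68). SELENOW, a small selenoprotein, had 118 CPM in free, 554 in monosome, 131 in light polysome and 12.1 in heavy polysome, at -4.21 (-5.09 to -3.42). EMC6, a subunit of the endoplasmic reticulum membrane complex, had 385 CPM in free, 1250 in monosome, 479 in light polysome and 43.5 in heavy polysome, at -4.09 (-4.54 to -3.67). In all of these, monosome held more than the other libraries together.

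Others of this kind were COMMD6 at -4.08 (-4.64 to -3.55), MRPL51 of the mitochondrial ribosome at -3.58 (-3.83 to -3.33), and C12orf75 at -4.89 (-5.45 to -4.38), with 397 CPM in monosome and 385 in free. GTF3A, the transcription factor of 5S rRNA genes, was at -3.85 (-4.24 to -3.46) with 545 CPM in monosome and 425 in free. TAF10, a subunit of TFIID, had its highest CPM in light polysome, 465 against 439 in free, with 76.1 in heavy polysome.

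**Figure D3:**
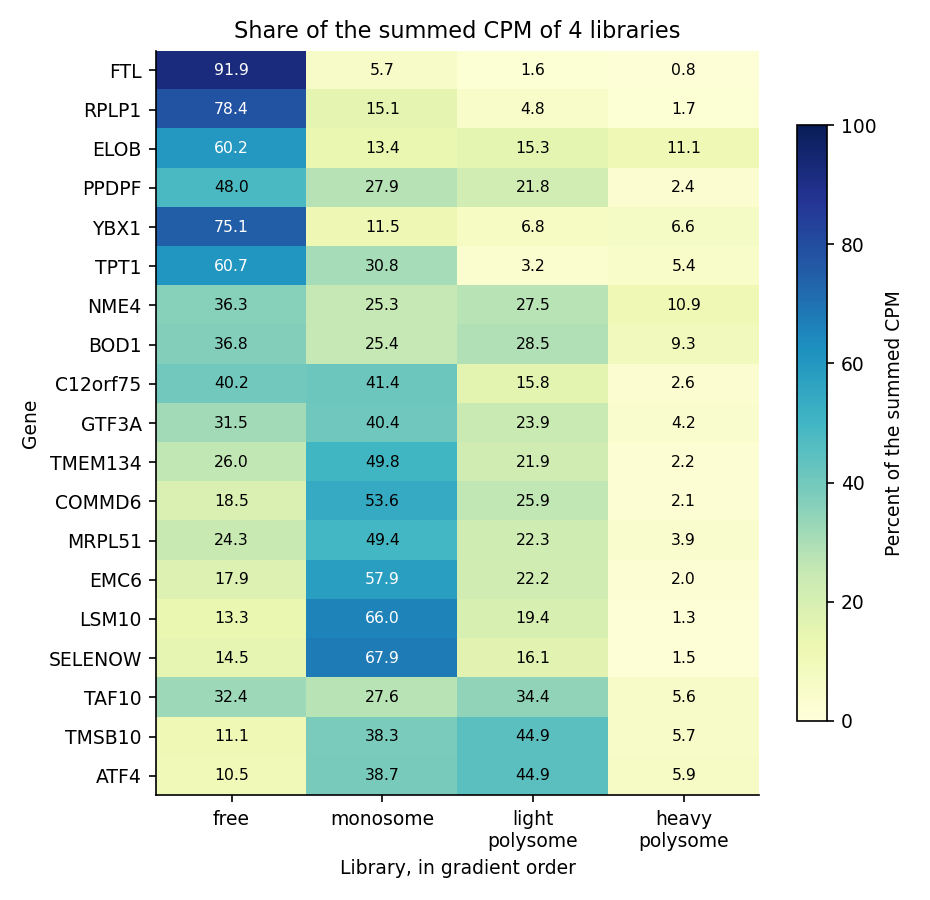
Percent of the summed CPM of the 4 libraries that lies in each library, in gradient order, for 19 mRNAs; each library has equal weight, so a cell is not a share of the RNA in the cells. FTL, RPLP1, YBX1, TPT1, ELOB and PPDPF are highest in free, LSM10, SELENOW and EMC6 in monosome, and TMSB10 and ATF4 in light polysome, and all 19 have 11.1% or less in heavy polysome.

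Transcription starts were read to see whether the lower members begin like TOP mRNAs. The motif was a C followed by at least 4 pyrimidines, beginning within 2 bases of the RefSeq start on GRCh38.p14, on the transcribed strand only. It was present in 43 of 60 ribosomal protein members (71.7%), against 10.5% of all 27305 RefSeq promoters. Of the lower members without a copy, 30 of 202 (14.9%) had it, beside 43 of 285 higher members (15.1%) and 33 of 296 that were neither (11.1%). An absent run says only that these letters are not at the annotated start.

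The starts below are shown to compare some of the lower members named above with TOP mRNAs. They are not the lowest in order of ratio. Those shown outside the TOP lists all lack the run, whereas 30 of 202 lower members without a copy had it. The start is the base after the first 8, and capitals mark the run where the motif is met. Each line covers 28 bases: RPLP1 chr15:69452810-69452837 (+), TPT1 chr13:45341164-45341191 (-), EEF1A1 chr6:73521013-73521040 (-), YBX1 chr1:42682410-42682437 (+), PPDPF chr20:63520733-63520760 (+), ELOB chr16:2777261-2777288 (-), LSM10 chr1:36397889-36397916 (-) and MRPL51 chr12:6493243-6493270 (-).
RPLP1: cgcgagagCCCCTTTCCTCagctgccgc
TPT1: gagtcggCCTTTTCCgcccgctcccccc
EEF1A1: tgaacgttCTTTTTCgcaacgggtttgc
YBX1: gtcccgccattctcgctagttcgatcgg
PPDPF: gcgcatataagtgggcgcgtccgcgcgt
ELOB: ggcggagcgcggctgcgccggcgcgtcg
LSM10: gcactgacgcactctgcgcccggaggac
MRPL51: gtgcgcccacagctgcctgggtaaggcc

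The members listed by name as TOP mRNAs also include 16 that code for no ribosomal protein; 10 of these had a RefSeq promoter entry, and 8 of the 10 had the run. Of the 16, 2 were lower and 10 higher, with a median of 1.32 that turned below 0 under TMM, DESeq2's size factors and the all-gene scaling. EEF1A1, the elongation factor that delivers aminoacyl-tRNA, had 1902 CPM in free, 13916 in monosome, 6386 in light polysome and 7892 in heavy polysome, at 1.10 (0.99 to 1.22), and it also turned below 0 under those scalings. EEF2, the translocation factor, was at 2.32 (1.90 to 2.82), and HNRNPA1, a splicing protein, at 3.78 (3.47 to 4.12).

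Coding length varied with the ratio. It was taken as the longest annotated coding sequence of each gene, which need not be that of the mRNA that was read. Over the 901 members without a copy that have a coding length, the Spearman correlation was 0.38, a description over genes that share the same libraries. Of the 86 with under 300 coding nucleotides, 51 were lower (59.3%) and 1 higher, with a median of -1.15. Of the 379 from 300 to under 600, 105 were lower and 95 higher, with a median of 0.01. Of the 229 from 600 to under 900, 36 were lower and 118 higher, with a median of 1.11, and of the 151 from 900 to under 1500, 24 and 89, with a median of 1.57. The 2 shortest classes thus held most of the lower members, but they also held most of the 901. The share lower from 300 to under 600 was 27.7%, near the 26.1% of all 909, against 59.3% under 300. Of the 126 lower members with 30 or more free counts and a known length, 97 were under 600. The 368 members outside the TOP and ferritin lists with 30 or more free counts, copies included, had a median coding length of 490.5.

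The trend did not continue to the genes with the longest annotated coding sequences. Of the 56 with 1500 or more coding nucleotides, 18 were lower and 23 higher, with a median of -0.17. All class medians moved together under another scaling, those of 0.01, 1.11 and 1.57 to below 0 with the all-gene median (the 2 smaller ones also with TMM and DESeq2's size factors) and that of -0.17 to above 0 with library totals. Against monosome over free, which shares only the free library, coding length had a correlation of -0.12, and against light polysome over monosome -0.03. Among the 73 ribosomal proteins the correlation with heavy polysome over free was 0.56.

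**Figure D4:**
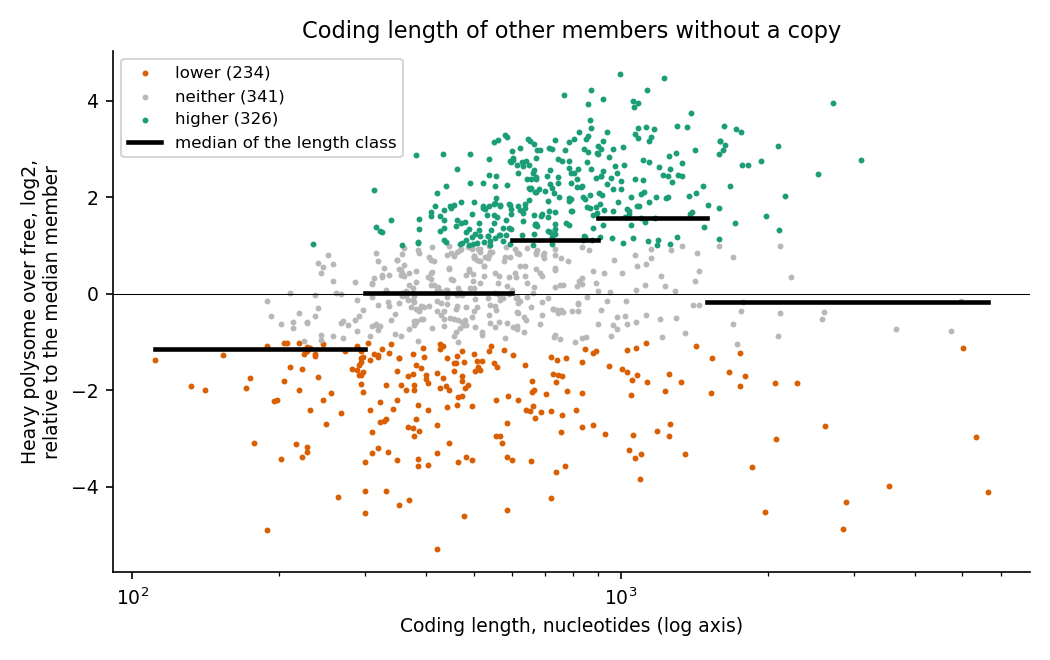
Coding length on a log axis against the relative log2 ratio of heavy polysome over free for the 901 members outside the TOP and ferritin lists that hold no copy and have a coding length; bars are medians of the 5 length classes. The medians climb from -1.15 under 300 nucleotides to 1.57 at 900 to under 1500, and the longest class, with 56 members, is at -0.17.

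Gene lists were read beside the background of 31.4% lower and 32.8% higher. Near-identical genes count as separate members of a list, although their reads may be shared. Among the lists of the low end, mRNAs of mitochondrial import and CHCHD proteins had 10 of 21 members lower and 5 higher, with a median of -0.92, and complexes II to IV with cytochrome c had 8 of 21 lower and 4 higher, with a median of -0.66; both medians turned above 0 under library totals, and that of complexes II to IV also with a minimum of 20 free counts. DNAJC19 of the import motor was at -3.45 (-3.99 to -2.93), and TOMM40, the import channel, at 3.23 (2.41 to 4.36). COX7A2L, which assembles respiratory supercomplexes, was at -2.38. HIGD2A, a cytochrome c oxidase assembly factor that is not in the list of complexes II to IV, was at -3.20 (-3.61 to -2.79).

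The respiratory lists did not move as one. Complex I had 2 of 29 members lower and 11 higher, with a median of 0.84, and mitochondrial ribosomal proteins 6 of 43 lower and 16 higher, with a median of 0.57, both below 0 under TMM, DESeq2's size factors and the all-gene scaling, and that of the mitochondrial ribosome also with a minimum of 5 free counts. NDUFAF8, a complex I assembly factor of 222 coding nucleotides, was the lowest of its list at -3.38 (-3.70 to -3.07). MRPL42 was at -3.48 (-3.92 to -3.05), and MRPL3 at 3.46 (2.65 to 4.60) in the same particle.

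Small nuclear proteins were mixed. Sm and LSm proteins, the rings on spliceosomal RNAs, had 6 of 18 lower and 4 higher, with a median of -0.60, and RNA polymerase and transcription factor subunits 7 of 21 lower and 1 higher, with a median of -0.54; both turned above 0 under library totals. POLR2K, a small subunit shared by the nuclear RNA polymerases, was at -3.43, and POLR2E, another shared subunit, at 2.64 (2.00 to 3.47). Histones, whose replication-dependent mRNAs lack a poly(A) tail and are read here only from polyadenylated forms, had 7 of 14 lower and 5 higher, with a median of -0.89 that turned above 0 under library totals and with a minimum of 20 free counts. HIST1H4C was at -2.87 and the linker histone H1FX at 2.75. HIST2H2AA3 and HIST2H2AA4, with 100% identity over 390 bases, were both lower.

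Selenoproteins, which decode UGA as selenocysteine, had 3 of 5 members lower and 0 higher, with a median of -1.56. Ubiquitin and ubiquitin-like proteins had 5 of 11 lower and 0 higher, with a median of -0.40 that turned above 0 under library totals. ATF4 and ATF5, stress transcription factors held back by upstream open reading frames, were both lower, at -1.79 (-1.99 to -1.58) and -1.15 (-1.95 to -0.19), but within 2-fold of equal shares under library totals alone. ATF4 had 765 CPM in free, 2817 in monosome, 3265 in light polysome and 428 in heavy polysome. TMSB10, an actin monomer-binding peptide of 132 coding nucleotides, had a like profile, with 425 CPM in free, 1718 in light polysome and 217 in heavy polysome. Both were scarce at the 2 ends of the gradient.

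Some lists of splicing and protein folding lay at the high end, unlike the Sm and LSm proteins above. The hnRNP, SR and SF3 splicing proteins had 21 of 24 higher and 0 lower, with a median of 3.00. These include near-identical genes: HNRNPA1P48, the most counted of the list in free, matches HNRNPA1 at 99.6% identity over 752 bases. HNRNPAB had 53.4 CPM in free, 101 in monosome, 520 in light polysome and 2463 in heavy polysome, at 4.54 (3.93 to 5.31), the highest of all members. HNRNPA2B1 was at 4.00 (3.51 to 4.59). The cytosolic chaperonin had 4 of 4 higher, from 2.98 for CCT4 to 3.47 for CCT7, and heat shock chaperones 7 of 9, with HSPD1 at 3.41 (2.63 to 4.48) and the small HSPB1 at -2.20 (-2.60 to -1.78). The heat shock list's median was above 0, but below 0 for the 3 members left with a minimum of 20 free counts. Prefoldins, which hand unfolded actin and tubulin to the chaperonin, had 3 of 7 lower and 2 higher, with a median of -0.12 that turned above 0 under library totals.

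The proteasome had 15 of 18 members higher and 1 lower, with a median of 2.21; PSME3, an activator subunit, was at 3.21 and PSMG3, an assembly chaperone, at -1.71 (-2.27 to -1.10). Glycolysis had 4 of 5 higher, with LDHA, lactate dehydrogenase, at 3.95 (3.47 to 4.54) and ENO1, enolase, at 3.48 (3.11 to 3.91). GAPDH of the same pathway was at 0.42 (0.32 to 0.53), with 2301 CPM in free, 905 in monosome, 867 in light polysome and 5948 in heavy polysome. It was the one glycolytic member that was neither lower nor higher. ACTB, cytoplasmic actin, was at 3.39 (3.14 to 3.66), SERBP1, an mRNA- and ribosome-binding protein, at 4.47 (3.94 to 5.13), and YWHAE, a 14-3-3 protein, at 4.12 (3.57 to 4.79). No annexin, no aminoacyl-tRNA synthetase and no enzyme of serine or asparagine synthesis reached 10 free counts.

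**Figure D5:**
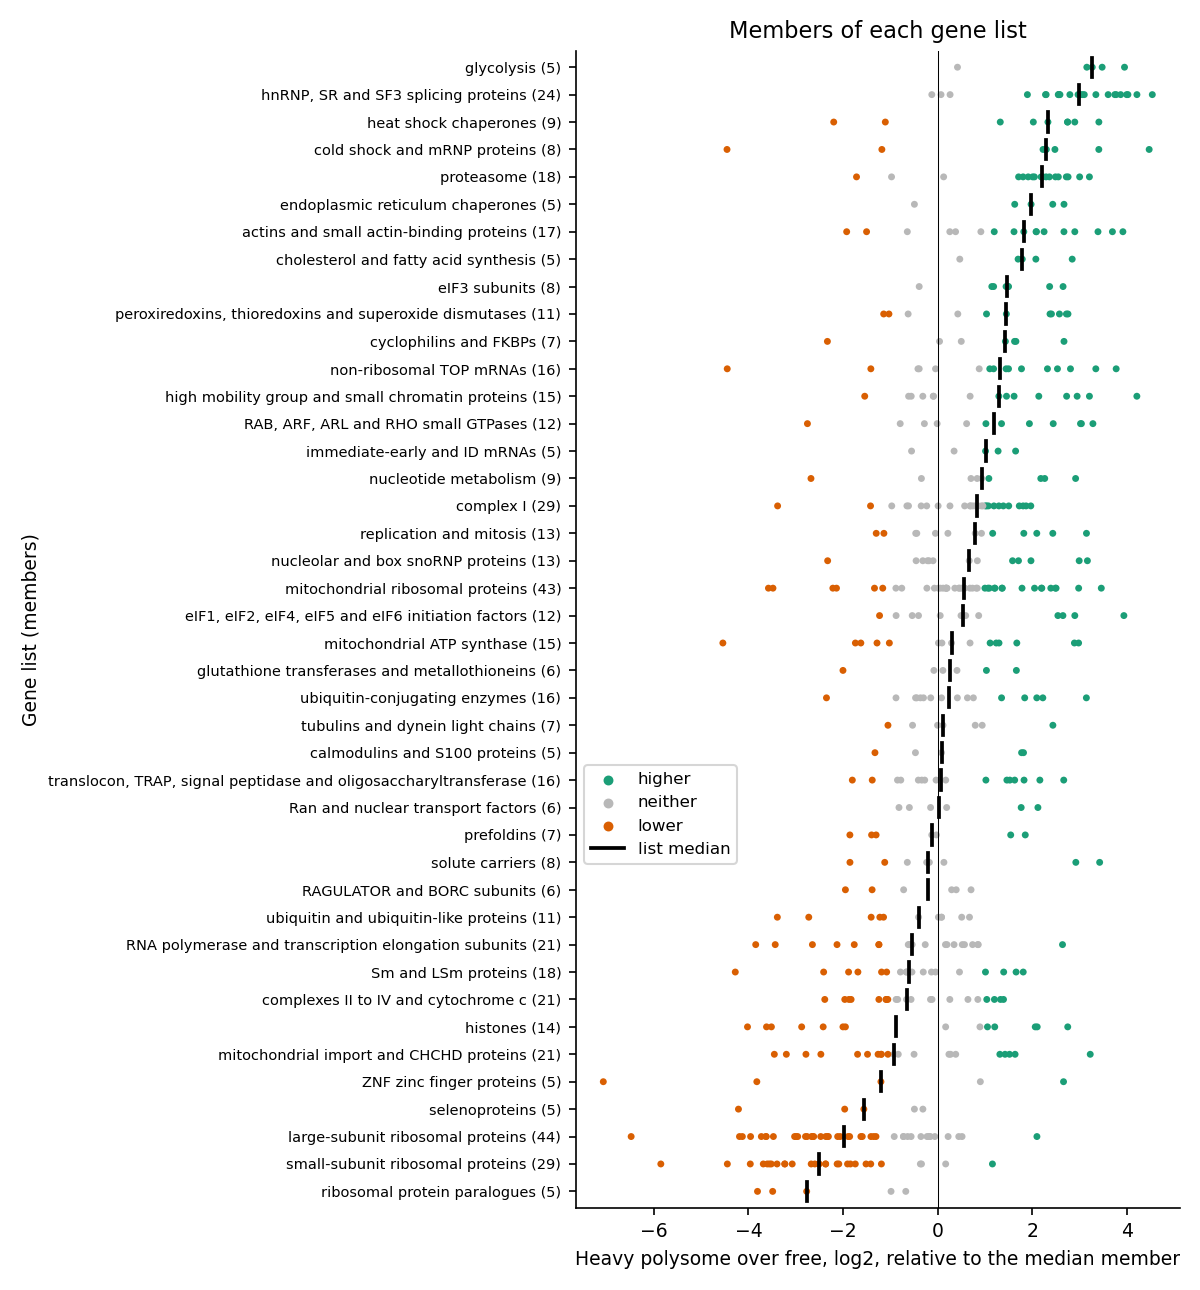
Each point is a member, placed by its relative log2 ratio of heavy polysome over free, for the 42 lists with 5 or more members, ordered by median; colours mark the calls and black ticks the medians. Glycolysis and splicing proteins lie at the top with medians of 3.27 and 3.00, and ribosomal proteins and their paralogues at the bottom.

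The light polysome and monosome libraries, which the heavy-to-free ratio does not use, came from the same fractionation and gave a second view. Relative to the median member, 204 of 1097 were lower in light polysome than in monosome (18.6%) and 180 higher (16.4%). Of the 237 members without a copy that were lower in heavy polysome, 83 were lower in light polysome too and 1 was higher, with a median of -0.66. Of the 328 higher members, 12 were lower and 125 higher, with a median of 0.71. The Spearman correlation of both ratios over the 909 genes was 0.60, a description across genes.

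Single members differed in this second ratio. SELENOW was at -2.57 (-2.80 to -2.34) in light polysome over monosome and LSM10 at -2.26 (-2.41 to -2.11), whereas ELOB was at -0.30 (-0.44 to -0.16) and TAF10 at -0.17. TPT1 had -3.74 (-3.83 to -3.66), and PPDPF -0.85 (-0.92 to -0.78), short of the 2-fold threshold. ATF5 was lower in heavy polysome over free but higher in light polysome over monosome, at 1.29 (0.90 to 1.72). Members with like ratios of heavy polysome over free thus lay at different places between the ends of the gradient.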

How the data were processed

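The deposited table holds the authors' raw read counts for each gene, unscaled, in 4 direct RNA libraries. The submitters' processing notes name minimap2 2.15, featureCounts, Subread 1.6.2 and hg38. Annotation release, multi-mapping reads and strand use: not given in the sources used here. Near-identical, overlapping and antisense genes are therefore uncertain. No column was left unused (0). With 1 library per pool no replicate test can be fitted. Ratios used a pseudocount of 0.5, library totals and centring on the median member, with exact conditional binomial (Clopper-Pearson) 95% intervals; the ratio functions were tested on simulated data. Genes, members and the 54 lists were chosen with earlier results of these data known. Named genes are the 30 lowest and 20 highest with 30 or more free counts outside the ribosomal protein and ferritin lists, each list's lowest, highest and most counted member, and fixed genes; some are left out. COMMD1, RPSA, RPL12, TIPIN, RPL9, LMNTD1, AC073082.1, BOD1, MRPL42, TAF10, HIGD2A, POLR2K, HIST1H4C, HIST2H2AA3 and HIST2H2AA4 were named after their values were seen. Coordinates and coding lengths came from GENCODE 29 (1087 members, 99.1%) and starts from RefSeq (924 members, 84.2%; 62.5% for the TOP mRNAs that code for no ribosomal protein, so no share is given for them). Copies used BLAST 2.17.0, dropping source genes hit by over 20 genes. Analyses used Python 3.11.15, numpy 2.4.6, pandas 2.3.3, scipy 1.17.1, matplotlib 3.10.9, R 4.3.3, edgeR 4.0.16 (TMM) and DESeq2 1.42.0 (size factors), the last pair for scaling alternatives only. Values of some single pairs are left out of the text.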

Additional observations from a re-analysis of the deposited data

How the results depend on the processing

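Counts of calls moved with the minimum, the threshold and the scaling, given here as lower, higher and lower outside the TOP and ferritin lists (345, 360 and 287 as reported). A minimum of 5 free counts gave 550, 550 and 487, of 20 gave 191, 187 and 140, and of 50 gave 91, 83 and 51, because fewer or more genes were tested. With every gene that had a count in either library they were 865, 1563 and 789, and with 50 counts over the pair 880, 308 and 798. A 4-fold threshold gave 192, 189 and 148. Without centring, library totals gave 198, 540 and 154, TMM 610, 144 and 534, and DESeq2's size factors 645, 118 and 567. Centred on the 7527 genes they were 756, 49 and 677. A pseudocount of 1 or none and centring on members outside the TOP and ferritin lists kept each count within 1.5 times. So did summing heavy and light polysome or free and monosome. So did leaving out hosts of TOP, ferritin or mitochondrial rRNA copies, chosen after seeing the data (326, 341 and 268). Leaving out hosts of any copy as defined above also did (300, 323 and 242).

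Of 61 genes with a ratio in the text, EEF1A1 changed sign, to -0.24 with TMM, -0.42 with DESeq2's size factors and -0.99 with the 7527 genes, and lost its call with a minimum of 5 free counts, at 0.51. Library totals ended the calls of TMSB10, ATF4, ATF5 and PSMG3; TMM and DESeq2's size factors those of RPL3 and EEF2; and the 7527 genes those of RPL3, EEF2, CCT4, POLR2E and H1FX. Of 51 list medians, 9 changed sign under library totals, 20 under TMM, 24 under DESeq2's size factors, 27 under the all-gene median, 12 with a minimum of 5 free counts, 4 of 49 with one of 20 and 0 with a pseudocount of 1. The free library was the shallowest, with 355509 counts; for some lower members the heavy polysome count was the smaller of the pair, as for LSM10 with 33 in heavy polysome and 76 in free. No paired analysis was possible because each pool has 1 library and no replicate numbers.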
